A study of Mus musculus with 2 samples.

Results

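The 10 genes described here encode the immunoproteasome and the machinery that loads peptides on MHC class I molecules, and they were chosen by name. They are the inducible proteasome subunits Psmb8, Psmb9 and Psmb10, the activator subunits Psme1 and Psme2, the peptide transporter subunits Tap1 and Tap2, the chaperone tapasin (Tapbp), the class I light chain B2m and the transcriptional activator Nlrc5. All 10 were found among the 20659 genes that could be named on the arrays, with 12 probes in all. All 12 probes were well above background on both arrays, and 0 spots were saturated or marked as outliers.

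RNA was taken from glomeruli, the capillary tufts in which the kidney filters blood. The mice were male and 8 months old. One group carried a podocyte-specific knockout of Sirpa (Sirpa-/-), which encodes the inhibitory receptor SIRPα, and the other was wild type (WT). Both groups had 1 injection of 0.5 ml of pristane, an oil that sets off lupus-like autoimmunity, into the abdominal cavity 4 months before, and uninjected mice were not analysed here. Each group had 1 Agilent array with a single dye, so there is no replicate check and no test between the genotypes, and each difference is one between these 2 arrays. Neither the transgene behind the podocyte deletion nor the number of mice behind each array is stated in the labels. The series' design text speaks of podocytes, but the sample labels and protocol speak of glomeruli collected with magnetic beads. Markers of podocytes (12 of 12), glomerular endothelium (10 of 10), mesangium (8 of 8) and proximal tubule (10 of 10) were all measured on both arrays, where 86.7% and 85.3% of all probes were well above background.

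Sirpa had a scaled signal of 15.6 on the array labelled Sirpa-/- and 10.04 on the WT array, which is 1.56-fold higher where podocytes should lack it. It had 1 named probe, whose place relative to the deleted part is not known here, and Sirpa of other glomerular cells would remain. The labels could therefore not be checked with this probe, and the cause of the higher Sirpa signal was not tested. The labels are taken as given, and the direction of each difference rests on them. Each difference below sets the array labelled Sirpa-/- against the WT array. In bulk RNA, fewer cells of a type and less RNA per cell cannot be told apart.

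Cells cut their own proteins into peptides with the proteasome, a barrel whose catalytic subunits are exchanged for Psmb8, Psmb9 and Psmb10 in leukocytes and, under interferon gamma, in many other cells. The peptides pass through the TAP transporter into the endoplasmic reticulum, where tapasin holds class I molecules in place until a fitting peptide is bound, and the complex then shows it to CD8 T cells. Nlrc5 switches on class I genes together with several genes of this machinery, and interferon gamma is a known inducer of all of them.

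Promoters of 8 of the 10 genes are held in the RefSeq table for GRCm38.p6, those of Psmb8, Psmb9, Psmb10, Psme1, Psme2, Tap1, Tapbp and B2m, from 250 bases before to 50 bases after the start. The 3 shown carry the points used below. Psmb9 and Tap1 run in opposite directions from starts only 226 bases apart, so that their windows share 275 bases and 1 sequence serves for both. The Psme1 window shows 1 of the 2 interferon regulatory factor motifs found, and that of B2m shows a promoter with 4 kinds of the motifs searched. Each is given 5′ to 3′ on the strand of the gene named, chr17:34187306-34187605 on the + strand for Tap1, chr14:55578244-55578543 on the + strand for Psme1 and chr2:122147437-122147736 on the + strand for B2m, with motif matches in capitals.
Tap1: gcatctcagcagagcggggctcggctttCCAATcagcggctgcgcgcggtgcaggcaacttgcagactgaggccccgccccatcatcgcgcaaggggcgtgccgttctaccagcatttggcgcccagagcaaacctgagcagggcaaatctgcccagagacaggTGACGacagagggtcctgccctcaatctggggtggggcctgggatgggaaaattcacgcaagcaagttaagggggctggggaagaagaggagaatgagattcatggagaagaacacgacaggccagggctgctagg
Psme1: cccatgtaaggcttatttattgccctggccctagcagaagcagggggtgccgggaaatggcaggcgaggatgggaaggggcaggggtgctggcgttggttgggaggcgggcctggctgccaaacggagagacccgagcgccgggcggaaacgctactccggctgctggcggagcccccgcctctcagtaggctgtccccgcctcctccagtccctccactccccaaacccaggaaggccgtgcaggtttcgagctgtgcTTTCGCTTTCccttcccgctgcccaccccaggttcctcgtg
B2m: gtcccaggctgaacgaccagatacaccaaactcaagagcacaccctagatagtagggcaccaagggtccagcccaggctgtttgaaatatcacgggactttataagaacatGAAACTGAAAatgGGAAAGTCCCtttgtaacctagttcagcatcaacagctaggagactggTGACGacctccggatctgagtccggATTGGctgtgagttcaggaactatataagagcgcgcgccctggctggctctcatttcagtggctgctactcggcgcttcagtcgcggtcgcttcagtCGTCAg

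The motifs were searched on both strands as exact letters: GAAANNGAAA, bound by interferon regulatory factors, GGGNNTTTCC for NF-kB, CCAAT, and TGACG, the core of cyclic AMP response elements. GAAANNGAAA was found in the windows of 2 of the 8 genes, B2m and Psme1, and in 3.49% of all 27025 genes with a window. GGGNNTTTCC was found in 1 window, that of B2m, against 1.62% of all genes. CCAAT was found in 4 of the 8 (B2m, Psmb9, Tap1 and Tapbp), against 37.9%, and TGACG in 4 (B2m, Psmb9, Psme2 and Tap1), against 21.0%. The CCAAT and TGACG matches of Psmb9 and Tap1 lie in the shared bases and are the same letters. Of all these matches 0 overlapped another, and a match is a description of the letters only.

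The machinery as a group lay slightly higher on the array labelled Sirpa-/-. Of the 10 genes, 8 were higher and 2 lower, with a median log2 difference of 0.15, against a median of 0.00 over all 18240 genes measured on both arrays. Above 0 lay 50.3% of all measured genes, and 51.3% of the 9830 genes at least as bright as the dimmest of the 10. None of the 10 reached 2-fold: the count was 0 higher and 0 lower, against 1.57% and 1.67% of all measured genes. At 1.5-fold the counts were again 0 and 0, against 4.35% higher and 5.27% lower. At 1.3-fold, a threshold set after the values were seen, 1 gene was higher, Tap1, and 0 lower, against 8.56% and 9.86% of all measured genes and 5.06% and 6.08% of those at least as bright as the dimmest of the 10. A count of 1 in 10 lies near these shares, and Tap1 fell short of 1.3-fold, at 0.37 each time, with background correction by normexp and without background subtraction.

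**Figure D1:**
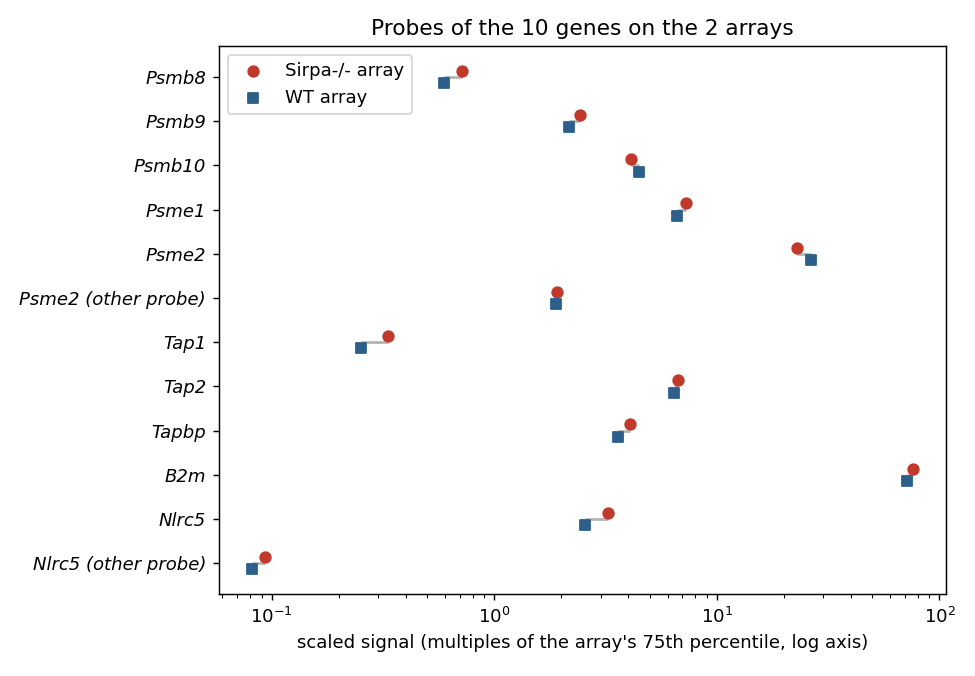
Scaled signal of each of the 12 probes (horizontal log axis, multiples of the array's 75th percentile) on the array labelled Sirpa-/- (circles) and the WT array (squares), with 1 array per group. The points of each probe lie close together, from 1.33-fold higher (Tap1) to 1.16-fold lower (Psme2, brighter probe).

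The inducible catalytic subunits did not all move one way. Psmb8, which replaces the constitutive subunit Psmb5, had a scaled signal of 0.712 on the array labelled Sirpa-/- and 0.596 on the WT array, a log2 difference of 0.26. Scaled signals here and below are multiples of the array's 75th percentile. Psmb9, which replaces Psmb6, had 2.43 on the array labelled Sirpa-/- and 2.17 on the WT array, a difference of 0.16. Psmb10, which replaces Psmb7, had 4.10 on the array labelled Sirpa-/- and 4.48 on the WT array, a difference of -0.13. So 2 of the 3 were higher and the third lower, each with 1 spot per array. The differences of Psmb9 and Psmb10 were smaller than the scanner software's error on each, 0.20, so their directions are uncertain.

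The constitutive partners stayed nearer to 0, at -0.03 for Psmb5 (0.02 on its other probe), -0.03 for Psmb6 and 0.09 for Psmb7. Taken within each array, which removes any scaling between arrays by a constant, the array labelled Sirpa-/- had a Psmb8 to Psmb5 ratio 1.22-fold higher than WT and a Psmb9 to Psmb6 ratio 1.14-fold higher. The Psmb10 to Psmb7 ratio was 1.16-fold lower. The exchange partners therefore gave 2 ratios in one direction and 1 in the other. Each ratio carries the error of both of its genes, so these directions are uncertain too.

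The activator subunits Psme1 and Psme2 form a ring that opens the proteasome's end. The Psme1 probe was spotted 10 times, with scaled signals from 6.81 to 7.78 (median 7.19) on the array labelled Sirpa-/- and from 6.10 to 7.02 (median 6.64) on the WT array. The spots of the arrays overlapped: 7 of 10 on the array labelled Sirpa-/- lay above the highest WT spot. At the same position, all 10 of 10 spots were brighter after scaling on the array labelled Sirpa-/-. The mean log2 difference was 0.13 ± 0.08 (SD over 10 spots). The smallest spot difference was 0.005, and median scaling moved the mean from 0.132 to 0.125, so the count of 10 rests on the scaling.

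Psme2 had 22.8 on the array labelled Sirpa-/- and 26.4 on the WT array on its brighter probe, a difference of -0.21, which was the lowest of the 10 genes. Its other probe had 1.91 on the array labelled Sirpa-/- and 1.90 on the WT array, a difference of 0.01, so the lower value rests on 1 of its 2 probes. Psme3, the subunit of the nuclear activator ring, lay at -0.32, and Psme4, of a further activator, at 0.39 on both of its probes.

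The TAP subunits, which pair to form the peptide transporter, differed from each other. Tap1 was also spotted 10 times, with scaled signals from 0.299 to 0.359 (median 0.342) on the array labelled Sirpa-/- and from 0.231 to 0.276 (median 0.250) on the WT array. The spots did not overlap: 10 of 10 on the array labelled Sirpa-/- lay above the highest WT spot. The mean difference between spots of the same position was 0.41 ± 0.06 (SD over 10 spots), or 1.33-fold, the highest of the 10 genes. Spots of 1 array are repeat readings of 1 RNA sample, so this spread is technical and says nothing of the spread between mice. Tap2 had 6.67 on the array labelled Sirpa-/- and 6.39 on the WT array, a difference of 0.06, and the Tap1 to Tap2 ratio on the array labelled Sirpa-/- was 1.27-fold that of WT.

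**Figure D2:**
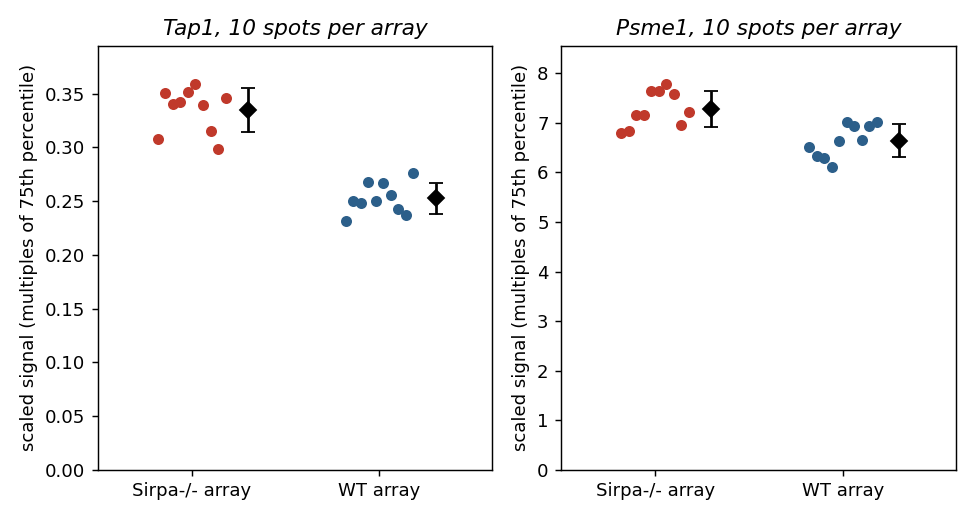
Scaled signal (vertical axis, from 0, multiples of the 75th percentile) of the 10 spots of the Tap1 probe and of the Psme1 probe, with mean and SD over spots (diamonds). The Tap1 spots of the array labelled Sirpa-/- (0.299 to 0.359) lie above all WT spots (0.231 to 0.276), and the Psme1 spots overlap.

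Tapasin, which bridges the transporter and the empty class I molecule, had 4.07 on the array labelled Sirpa-/- and 3.59 on the WT array, a difference of 0.18. B2m, the light chain shared by all class I molecules, had 76.0 on the array labelled Sirpa-/- and 71.3 on the WT array, a difference of 0.09. The heavy chains that pair with it lay close by, at 0.10 for H2-K1 (0.27 on its other probe) and 0.17 for H2-D1. None of these 4 genes reached 1.3-fold on its brightest probe.

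Nlrc5, the activator that turns on class I genes, had 3.25 on the array labelled Sirpa-/- and 2.57 on the WT array on its brighter probe, a difference of 0.34 or 1.27-fold. Its other probe was dim, with 0.0934 on the array labelled Sirpa-/- and 0.0813 on the WT array, a difference of 0.20. Both probes were higher on the array labelled Sirpa-/-, and the gap between them was 0.14. The gap between the Psme2 probes was 0.22. Over 2599 genes with more than 1 probe at least as bright as the dimmest of the 12, this gap had a median of 0.15 and a 90th percentile of 0.43.

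The technical error on each difference can be read in several ways. The scanner software put an error of at most 10.1% on each signal, which gives 0.20 to 0.21 on a log2 difference. By that measure 4 of the 10 genes, Tap1, Nlrc5, Psmb8 and Psme2, differed by more than their error, against 36.1% of all measured genes and 29.4% of those at least as bright as the dimmest of the 10. The spread between repeat spots was smaller, with a median SD of 0.06 for a difference over 255 probes spotted 10 times. Neither measure holds the spread between animals.

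**Figure D3:**
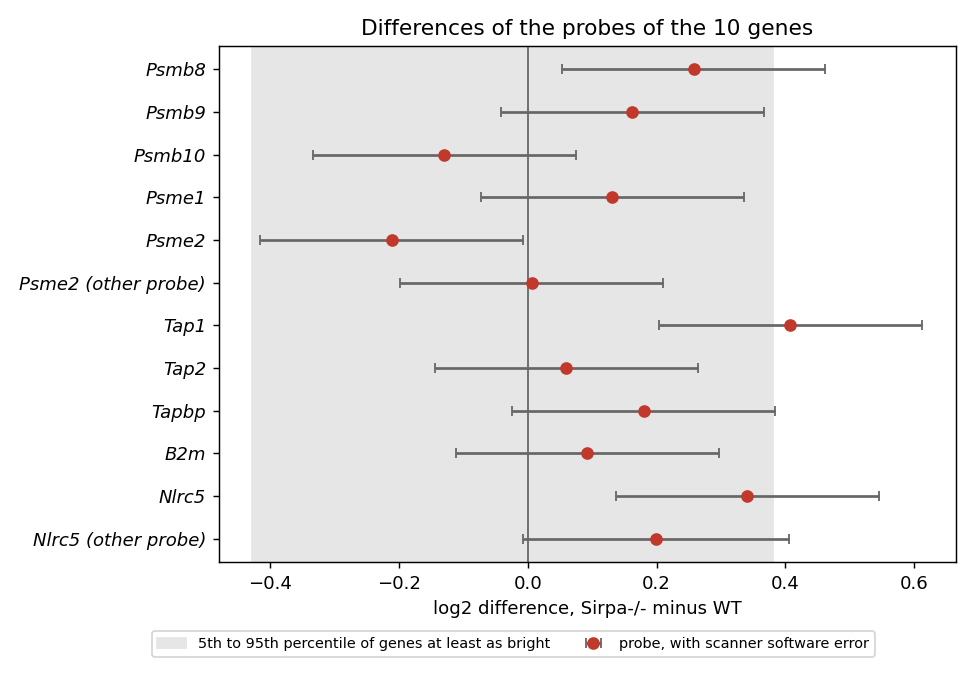
Log2 difference, array labelled Sirpa-/- minus WT array, of each of the 12 probes (points), with the scanner software's error as bars. The shaded band runs from the 5th to the 95th percentile (-0.43 to 0.38) of the 9830 genes at least as bright as the dimmest of the 10, and Tap1 at 0.41 is the 1 probe outside it.

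Of the 10 genes, 4 stand side by side on chromosome 17 in the gene order of GRCm38.p6 (Psmb9, Tap1, Psmb8, Tap2), inside the MHC class II region. Their differences of 0.16, 0.41, 0.26 and 0.06 were smaller than those of most class II genes around them, a set taken by position with the class II result already known. On the Tap2 side, H2-Ob, H2-Ab1, H2-Aa, H2-Eb1 and H2-Eb2, all class II chains, lay at 0.63, 0.92, 1.46, 1.17 and 1.08. On the Psmb9 side, H2-DMb1 (0.05), H2-DMa (0.34) and Brd2 (-0.01), a chromatin reader, lay lower, while the dim class II genes H2-DMb2 and H2-Oa gave 1.67 and 1.40. H2-DMa and H2-Eb2 were dim as well. On chromosome 14 only Emc9 (0.10) stood between Psme1 and Psme2, and past Psme2 lay Rnf31 (0.30) and the interferon signalling factor Irf9 (0.24).

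**Figure D4:**
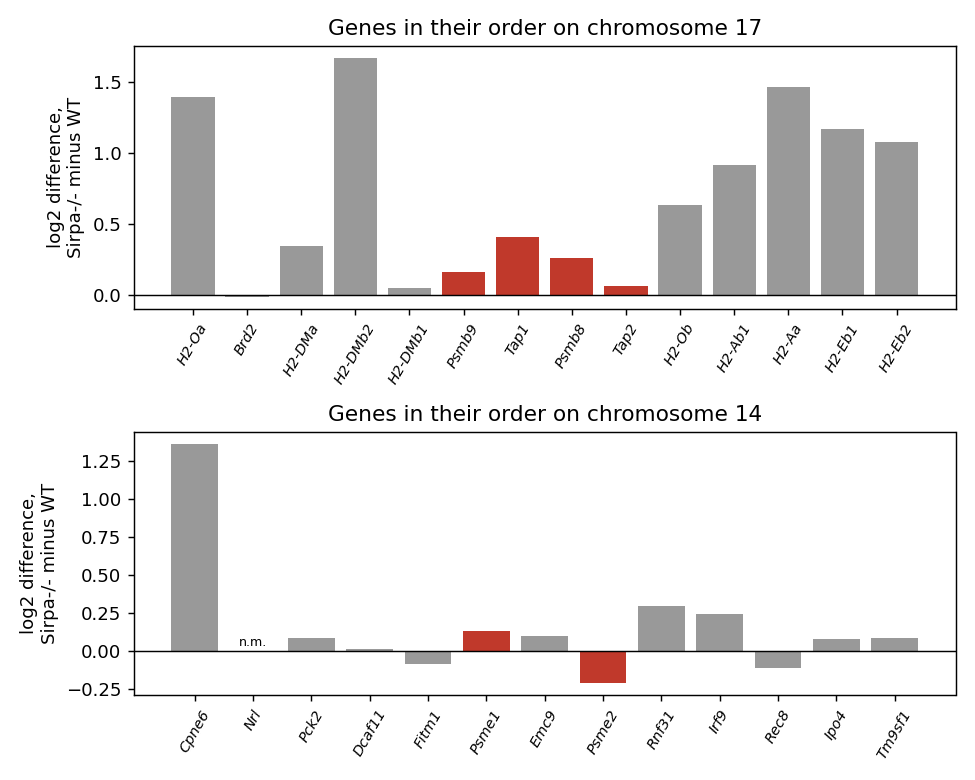
Log2 difference (bars, array labelled Sirpa-/- minus WT array) of genes in their order around the chromosome 17 cluster and around Psme1 and Psme2 on chromosome 14, with the 10 genes in red, others in grey and n.m. for a gene not measured. The 4 red bars of chromosome 17 (0.06 to 0.41) are shorter than those of the class II genes to their right (0.63 to 1.46).

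The class II genes are known to be high in B cells, and B cell markers differed too. All 8 of 8 lay above 0, and 5 were dim (a signal below the array's median on at least 1 array). Past 1.3-fold higher lay 7 of the 8 and past 2-fold 4, against 8.56% and 1.57% of all measured genes. Among the 7 was the dim Pax5, at 0.84 but 0.07 on its other probe. Their summed scaled signal was 3.53 on the array labelled Sirpa-/- and 0.924 on the WT array. Cd22 was the largest part of that sum, and the other 7 summed to 1.22 on the array labelled Sirpa-/- and 0.461 on the WT array. Markers of leukocytes in general differed less, with 7 of 8 above 0, a median of 0.13, sums of 5.75 on the array labelled Sirpa-/- and 4.91 on the WT array, and 0.11 for Ptprc (CD45). For T and NK cells the median was 0.30 over 10 markers, with sums of 4.41 on the array labelled Sirpa-/- and 4.35 on the WT array, and 6 of the 10 were dim. Nkg7 gave the largest part of these sums, and the other 9 summed to 1.76 on the array labelled Sirpa-/- and 1.48 on the WT array. For macrophages and monocytes the median was -0.08 over 9 markers, with sums of 13.2 on the array labelled Sirpa-/- and 12.2 on the WT array. Mrc1 set the direction of that sum, since the other 8 summed to 5.27 on the array labelled Sirpa-/- and 5.99 on the WT array. For dendritic cells it was 0.22 over 7 measured markers, with sums of 33.2 on the array labelled Sirpa-/- and 35.9 on the WT array. Nearly all of that sum came from Siglech, and the other 6 summed to 0.961 on the array labelled Sirpa-/- and 0.873 on the WT array, with Xcr1 not well above background on either. Leukocytes express the immunoproteasome constitutively, and the part of these cells in the differences of the 10 genes and of the class II genes was not tested.

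Resident cell markers gave medians of 0.12 over 12 podocyte genes, with sums of 409.8 on the array labelled Sirpa-/- and 364.6 on the WT array, and -0.05 over 10 endothelial genes, with sums of 298.4 on the array labelled Sirpa-/- and 311.1 on the WT array. Mesangial markers had a median of 0.06 over 8 genes, with sums of 93.7 on the array labelled Sirpa-/- and 108.5 on the WT array. Of these 8, 5 lay above 0, the highest being the dim Myh11 at 1.13. The 3 below 0 were the brightest, Pdgfrb (-0.22), Itga8 (-0.42) and Gata3 (-0.16). Proximal tubule markers were the lowest, at -0.34 over 10 genes, with sums of 18.1 on the array labelled Sirpa-/- and 24.4 on the WT array. Their part in the differences of the 10 genes was not tested either.

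The remaining genes of the pathway were set beside the 10 in lists. Class I heavy chains, which hold the peptide, had a median of 0.12 over 16 measured genes (0.18 with the mean of each gene's probes), with 10 above 0 and 6 below. At 2-fold 0 passed, and at 1.5-fold 1 was higher (H2-T3, 0.71, from a dim signal, but 0.44 with normexp and 0.42 without background subtraction) and 1 lower (H2-Q1, -0.60). Many of the H2-K, H2-D, H2-Q and H2-T genes are alike in sequence, so a probe may read several of them, while Cd1d1, Mr1 and H2-M3 are more distant relatives. The spread of this list, from -0.60 to 0.71, was wider than that of the 10 genes, from -0.21 to 0.41.

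The chaperones and trimming enzymes of class I peptide loading lay mostly on the other side of 0. Of 9 genes, 8 were below 0, with a median of -0.18 and 0 at 2-fold. Calreticulin (Calr), which holds the heavy chain in the loading complex with tapasin, was the lowest at -0.57, or 1.49-fold lower. Pdia3, the oxidoreductase bound to tapasin, lay at -0.18, Canx (calnexin) at -0.10, and the trimming peptidase Erap1 at -0.02. The tapasin-related editor Tapbpl was the 1 gene above 0, at 0.07. Within the loading complex, then, Tapbp (0.18) and Tap1 (0.41) lay above 0 and Calr and Pdia3 below. Tap2 (0.06) and B2m (0.09) lay nearer to 0, and the Tapbp difference was smaller than its software error of 0.20.

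The shared parts of the proteasome varied little. Other 20S core subunits had a median of 0.05 over 12 measured genes, from -0.10 (Psma5) to 0.22 (Psma6), and the 19S regulatory particle, which feeds in ubiquitin-tagged proteins, a median of 0.06 over 18 genes, from -0.03 (Adrm1) to 0.23 (Psmd8). In both lists 0 genes reached 1.3-fold. Psmb11, the catalytic subunit of the thymus, was not well above background on either array. Among other activators, the inhibitor and assembly factors, 6 of 8 were below 0, and Pomp, which helps the immunoproteasome assemble, lay at -0.13 (0.08 on its other probe).

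Factors that act on class I promoters had a median of 0.09 over 16 genes, with 11 above 0 and 0 at 1.5-fold. Irf8 was the highest at 0.35, and Irf1 lay at 0.17 (0.35 on its other probe). Rfx5, which joins Nlrc5 at class I promoters, was the lowest at -0.16 from a dim signal, and its other probe gave 0.72. Ciita, the class II counterpart of Nlrc5, lay at 0.00. Nlrc5 and its class II counterpart thus differed by 0.34 and 0.00, at signals that were dim for Ciita.

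Interferon gamma itself (Ifng) had raw signals of 19.8 on the array labelled Sirpa-/- and 11.6 on the WT array, both dim, a difference of 0.84 that was 0.31 with normexp and 0.21 without background subtraction. In its signalling list, whose median was -0.01 over 8 genes, the feedback inhibitor Socs3 was the highest at 1.06, or 2.08-fold, and the phosphatase Ptpn2 the lowest at -0.29, though its other 2 probes gave 0.00 and 0.22. Targets of interferon gamma other than the 10 genes had the highest median of these lists, 0.25 over 15 genes, with 12 above 0. Of these 1 reached 2-fold, the adhesion molecule Icam1 at 1.05 (0.83 with normexp), and 6 of 15 reached 1.3-fold, against 8.56% of all measured genes, with 0 that far lower. Of these 6, Ubd, Cxcl9 and Tgtp1 were dim. Over the other 12 genes of the list the median was 0.16, and 3 reached 1.3-fold. The GTPase Iigp1 was the lowest at -0.21, with 0.16 on its other probe. Cytosolic peptidases, which trim or destroy peptides before transport, had a median of 0.11 over 8 genes, from -0.08 (Thop1, dim) to 0.19 (Lap3). With the mean of each gene's probes this median was 0.07, and the other probe of Npepps gave -0.45, against 0.16 on its brightest.

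**Figure D5:**
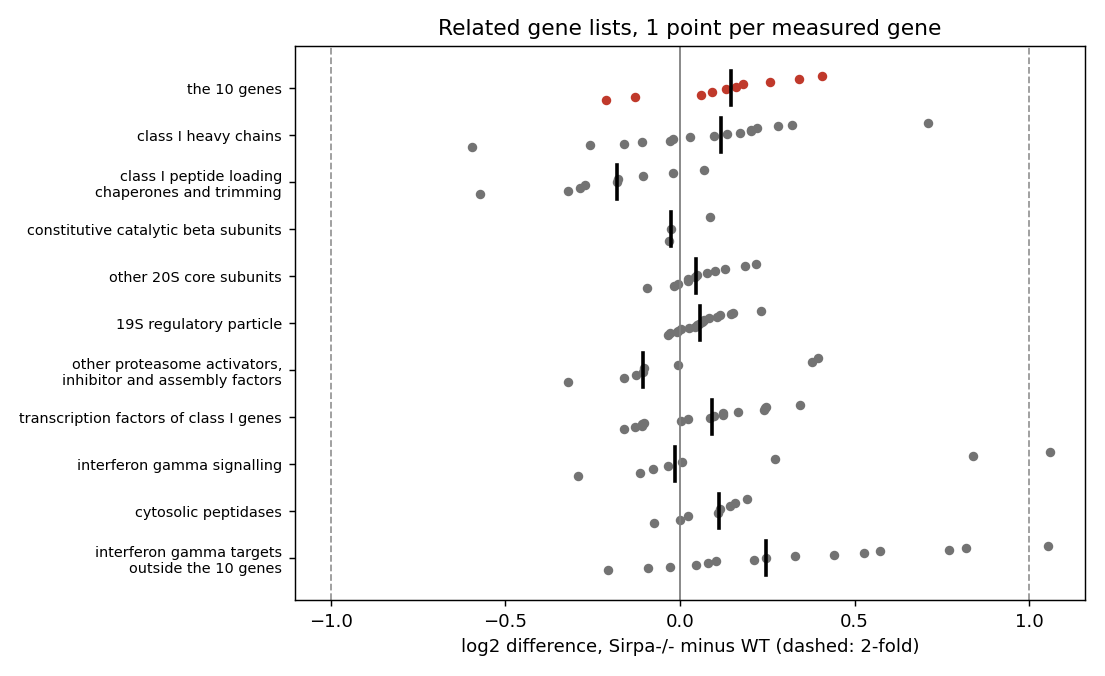
Log2 difference (horizontal axis, array labelled Sirpa-/- minus WT array) of each measured gene of the 10 (red) and of the 10 related lists (grey), with medians as black bars and 2-fold as dashed lines. Medians run from -0.18 for the chaperones to 0.25 for interferon gamma targets, with 0.15 for the 10 genes.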

How the data were processed

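Per the labels, glomerular RNA (0.25 µg) was labelled with Cy3 and hybridised to 1 Agilent array per group. Per the file headers, the authors extracted each spot's intensity with Feature Extraction 11.0.1.1, background-subtracted and detrended but not normalized between arrays (the submitters' processing notes name version 9.1). The authors' deposited table of log2 values, whose making no label describes, served as an alternative.

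Intensity was turned into log2, spots of a probe not marked as outliers were averaged, and each array's 75th percentile of its 39429 gene probes was subtracted. It stood at 1109 on the array labelled Sirpa-/- and 1158 on the WT array, where 86.7% and 85.3% of probes were well above background. Probes were named through RefSeq accessions (27234 of 28684 matched, GRCm38.p6 table). Names, gene order and promoter windows were taken from it, but no probe positions, since the arrays were designed on mm9. Probes with more than 50% of spots above background on both arrays were kept, and a gene was represented by their brightest probe. Arrays have no replicates, so no test was made, and the number of arrays limits the precision. Alternatives covered the scaling (quantile, loess, median, spike-ins), the background (normexp with an offset of 50, or none), the authors' deposited log2 table, the probe, the filter and the fold. Steps ran in Python 3.11.15 and limma 3.58.1 and were tested on simulated data.

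The 10 genes and the lists were chosen with earlier results of these data known. Named were all probes of the 10 genes, Sirpa, the highest and lowest of each list, a fixed set of partners (of which 1 is not reported here), and neighbours by position. Promoter letters came from RefSeq.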

Additional observations from a re-analysis of the deposited data

How the results depend on the processing

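No paired analysis was possible because each group had 1 array. The median difference of the 10 genes was 0.15 and ran from 0.13 to 0.21 over 11 alternatives, the highest with spike-in scaling, where the median of all genes was itself 0.06. The 10 genes kept their sign in all 11, except Psme2, which gave 0.01 with its dimmer probe. With normexp the 10 genes had a median of 0.17, against 0.07 over all genes, and Psmb9 gave 0.24. Tap2 gave 0.07 there, no higher than that median of all genes. Across the 113 genes of the related lists, 2 (1.77%) were at least 2-fold higher, against 1 with normexp and 1 without background subtraction (Icam1 fell below, at 0.83 and 0.92), 6 (5.31%) at 1.5-fold and 11 (9.73%) at 1.3-fold, near the 1.57%, 4.35% and 8.56% of all genes. At least 2-fold lower were 0, against 1 (0.885%) at 1.5-fold and 2 (1.77%) at 1.3-fold, below the 1.67%, 5.27% and 9.86% of all genes. Of the 10 genes, 1 was higher at 1.3-fold, Tap1, which fell short of it with normexp (0.37) and without background subtraction (0.37). The median of interferon gamma targets was 0.16 over the 12 genes brighter than the array's median. The 1.3-fold threshold and the dimmer probe were chosen after seeing the data. Spike-in scaling takes a constant from each array, so it moved all genes alike. The cause of the other shifts was not tested. Among the genes named, Ciita, Rfx5, Ifng, H2-T3, H2-DMa, H2-DMb2, H2-Eb2, H2-Oa, Thop1, Ubd, Cxcl9 and Tgtp1 gave dim signals, where a difference is least precise. So did Myh11, Pax5 and the dimmer Nlrc5 probe.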
